A study of Homo sapiens with 3 samples.

Results

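The transcriptome described here is that of SK-N-BE(2) cells given no arsenic trioxide, a baseline measured in 1 library of the 3 in the series. SK-N-BE(2) is an established cell line from a human neuroblastoma, with the MYCN gene amplified. The library was chosen by its label, and only its deposited column of FPKM (fragments scaled to transcript length and to the mapped total) was used. The other 2 libraries came from the same line after 12 h with arsenic trioxide at 2 µM or 4 µM and were not compared with it. Whether the control cells received a vehicle is not stated. The cells were grown in MEM and F12 with fetal bovine serum, and the line was the only model, so nothing below separates the line from neuroblastoma in general. There was 1 library and no replicate, so no SD, SE or p-value is given, and a difference between genes is a difference within this culture. In a bulk library, fewer cells with a transcript and less transcript per cell cannot be told apart.

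Neuroblastoma arises from the sympathoadrenal lineage of the neural crest, the embryonic population that also yields sympathetic neurons and the chromaffin cells of the adrenal medulla. Cells of this lineage make noradrenaline from tyrosine through TH, DDC and DBH, store it in dense-core granules and take it back up through SLC6A2. Neuroblastoma lines are commonly placed between an adrenergic state held by factors such as HAND2 and GATA3 and a mesenchymal state marked by PRRX1, AP-1 factors and matrix genes. MYCN, which encodes the basic helix-loop-helix factor N-Myc, is the oncogene most often amplified in this tumour.

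The table held 34520 rows, of which 12606 (36.5%) had at least 1 FPKM. Among 16416 protein-coding genes of the nuclear genome, 10595 (64.5%) reached that level, with a median of 3.15 FPKM. In all, 8341 rows lay from 1 to below 10 FPKM, 4060 from 10 to below 100, 188 from 100 to below 1000, and 17 at 1000 or more. Another 8515 rows lay from 0.1 to below 1 FPKM, 7033 were above 0 and below 0.1, and 6366 were listed at 0. Of the 17 rows at 1000 FPKM or more, GAPDH was the only row from outside the mitochondrial genome. FPKM summed to 256459, so that 1 FPKM equals 3.90 TPM, the same values rescaled to a fixed sum.

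Long and short RNAs of the mitochondrial genome made up 31.4% of the summed FPKM, of which the 13 messenger RNAs held 24.7%, the 22 transfer RNAs 4.55% and the 2 ribosomal RNAs 2.12%. MT-CO1, a core subunit of cytochrome c oxidase, was the highest row at 12502 FPKM and alone held 4.87% of the sum. MT-ND3 was the lowest mitochondrial messenger RNA at 335 FPKM, and MT-ND6 had 944 FPKM. MT-ATP8 (7135 FPKM) and MT-ND4L (6017 FPKM) are short and overlap MT-ATP6 (5903 FPKM) and MT-ND4 (5794 FPKM), so their separate values are uncertain. The mitochondrial transfer RNAs are shorter than a usual sequenced fragment, and their FPKM is no measure of mature transfer RNA. The 10 highest rows, all mitochondrial, held 24.6% of the sum, and without the mitochondrial genome the 10 highest rows held 4.87%. The 100 highest rows held 41.4% and the 1000 highest 62.9%.

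**Figure D1:**
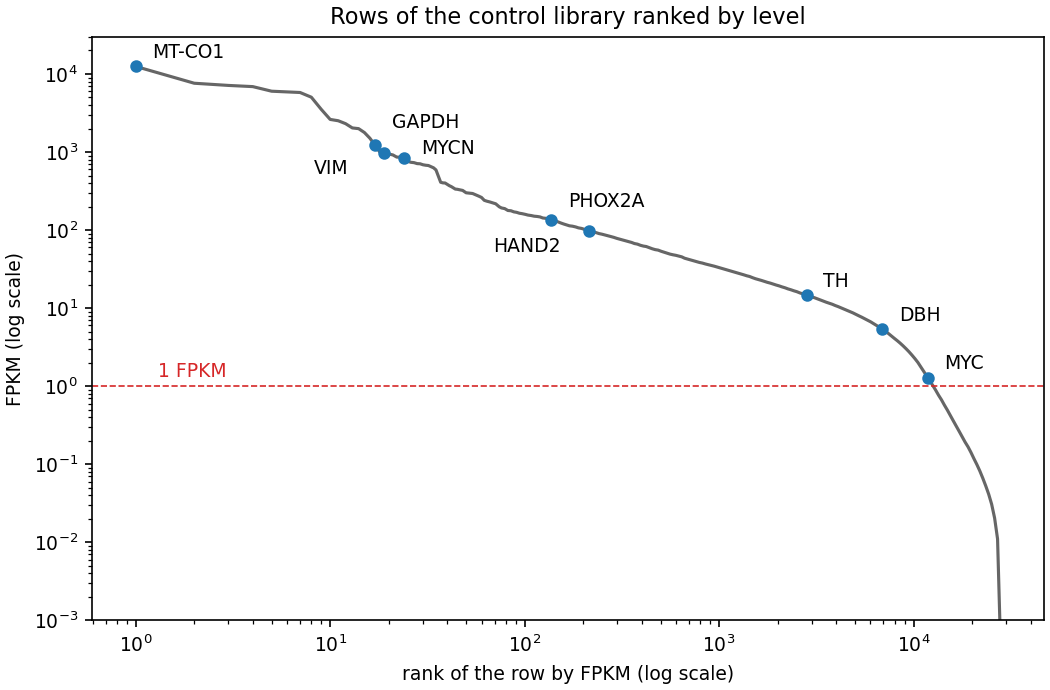
FPKM (log scale) of the rows of the control library above 0.001 FPKM, against rank (log scale). The line is the ranked table, the points are named genes and the dashed line is 1 FPKM; MYCN, at 832 FPKM and rank 24, lies beside GAPDH (1226 FPKM) and VIM (981 FPKM), far above MYC (1.28 FPKM).

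Outside the mitochondrial genome, the most abundant messenger RNAs encoded cytoskeletal, translation, chaperone and secreted proteins, and MYCN was among them. GAPDH, a glycolytic enzyme gene, had 1226 FPKM and the intermediate filament gene VIM had 981 FPKM. The elongation factor gene EEF1A1 (861 FPKM), the actin genes ACTB (860 FPKM) and ACTG1 (739 FPKM), and the cytosolic HSP90 gene HSP90AB1 (711 FPKM) followed around it. Tubulin genes stood close together, with TUBB at 687 FPKM, TUBA1A at 650 FPKM and TUBA1B at 628 FPKM. TUBA1A and TUBA1B encode near-identical proteins, so the division of reads between them is uncertain. TMSB10, an actin monomer binding gene, had 677 FPKM and the ferritin heavy chain gene FTH1 590 FPKM.

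Several genes of restricted expression had more than 100 FPKM. RGS5, a regulator of G protein signalling best known from pericytes, had 672 FPKM and ranked 12th among coding genes. PTN, which encodes the heparin-binding growth factor pleiotrophin, had 474 FPKM. DKK1, a secreted antagonist of Wnt signalling, had 388 FPKM, and the D-type cyclin gene CCND1 had 328 FPKM. BGN, the gene of the matrix proteoglycan biglycan, had 301 FPKM, and MMP2, which encodes gelatinase A, 297 FPKM. The IL13RA2 gene of an interleukin 13 decoy receptor, singled out after its value was seen, had 149 FPKM.

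Each of the 4 genes used to check the label was present. MYCN had 832 FPKM, the 5th highest of the coding genes. HAND2, a basic helix-loop-helix factor of sympathetic neurons, had 97.2 FPKM and ranked 169th. TH, the rate-limiting enzyme gene of catecholamine synthesis, had 14.7 FPKM, and DBH, which encodes the enzyme that turns dopamine into noradrenaline, had 5.39 FPKM. The markers thus spanned a wide range, with MYCN near the top of the library and DBH within the band from 1 to 10 FPKM where most expressed genes lay.

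The promoters of 3 of these 4 markers, and of 3 other genes (CHGA, SLC18A2 and DKK1), follow. Each is given as the 250 bases before the transcription start, 5′ to 3′, from RefSeq on GRCh38.p14. They are shown so that letters and level can be set side by side. Capitals mark matches, on either strand, to the GC box GGGCGG, the TATA box TATAAA, the E-box CACGTG that N-Myc and MAX bind, and the cyclic AMP response element TGACGTCA.
MYCN, chr2:15940300-15940549, plus strand: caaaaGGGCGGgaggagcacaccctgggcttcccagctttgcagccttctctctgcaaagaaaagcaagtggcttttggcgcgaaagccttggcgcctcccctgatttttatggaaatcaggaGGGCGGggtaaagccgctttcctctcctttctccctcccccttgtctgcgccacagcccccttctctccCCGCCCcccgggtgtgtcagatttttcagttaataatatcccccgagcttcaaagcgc
HAND2, chr4:173530230-173530479, minus strand: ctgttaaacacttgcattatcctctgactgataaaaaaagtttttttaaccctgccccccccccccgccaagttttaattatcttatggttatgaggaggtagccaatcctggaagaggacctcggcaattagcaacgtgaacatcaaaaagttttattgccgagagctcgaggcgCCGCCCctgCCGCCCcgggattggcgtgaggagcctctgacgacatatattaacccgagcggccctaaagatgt
DBH, chr9:133636113-133636362, plus strand: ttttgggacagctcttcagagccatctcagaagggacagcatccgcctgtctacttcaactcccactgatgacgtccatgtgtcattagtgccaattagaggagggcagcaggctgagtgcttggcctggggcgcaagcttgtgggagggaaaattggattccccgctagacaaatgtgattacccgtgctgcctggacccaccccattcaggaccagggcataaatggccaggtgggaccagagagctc
CHGA, chr14:92922900-92923149, plus strand: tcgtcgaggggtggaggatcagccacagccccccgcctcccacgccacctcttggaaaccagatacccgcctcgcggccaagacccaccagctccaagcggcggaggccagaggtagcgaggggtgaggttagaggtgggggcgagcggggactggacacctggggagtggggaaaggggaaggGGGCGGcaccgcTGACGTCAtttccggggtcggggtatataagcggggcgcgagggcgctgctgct
SLC18A2, chr10:117240864-117241113, plus strand: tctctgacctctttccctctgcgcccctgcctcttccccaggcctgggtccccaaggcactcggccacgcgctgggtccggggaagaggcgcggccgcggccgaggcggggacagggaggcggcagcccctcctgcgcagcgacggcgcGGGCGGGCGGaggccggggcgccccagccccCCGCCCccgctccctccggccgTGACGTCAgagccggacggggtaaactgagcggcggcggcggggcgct
DKK1, chr10:52314031-52314280, plus strand: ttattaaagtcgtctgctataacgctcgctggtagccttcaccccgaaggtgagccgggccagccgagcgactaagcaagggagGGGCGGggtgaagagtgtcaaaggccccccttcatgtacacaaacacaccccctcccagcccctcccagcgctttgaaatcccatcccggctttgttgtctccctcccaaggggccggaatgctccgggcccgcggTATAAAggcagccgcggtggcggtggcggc
In this window the MYCN promoter held 3 GC boxes and HAND2 held 2, and none of the 4 motifs was found for DBH. CHGA and SLC18A2 both held TGACGTCA, starting 54 and 48 bases before the start, yet CHGA had 12.2 FPKM and SLC18A2 0.141 FPKM. DKK1 held TATAAA 30 bases before its start. A match is a string of letters and not a shown binding site.

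Across genes, promoter letters varied with the level in this library. Promoters of 300 bases (250 before and 50 after the start) were matched by symbol to 11416 rows with a single listed start, 9181 of them protein-coding genes. Among all 11416, 62.8% held GGGCGG, 9.36% CACGTG, 7.94% TATAAA and 2.996% TGACGTCA. GGGCGG was found in 34.5% of promoters of genes listed at 0, in 52.1% above 0 and below 1 FPKM, in 72.3% from 1 to below 10 FPKM and in 76.3% at 10 FPKM or more. The share with CACGTG was 7.82%, 7.25%, 10.3% and 11.7% in the same order of levels. The share with TGACGTCA was 1.53%, 1.77%, 3.97% and 3.93%. TATAAA went the other way, with 15.8% at 0, 10.8% above 0 and below 1 FPKM, 5.00% from 1 to below 10 FPKM and 4.91% at 10 FPKM or more, but 9.27% (95% Wilson interval 7.24% to 11.8%, 58 of 626 promoters) at 30 FPKM or more. The median ratio of observed to expected CpG was 0.341 for genes at 0 and 0.892 for genes at 10 FPKM or more. Genes share promoter classes, so the intervals cover counting error only, and restricting the promoters to protein-coding genes left 76.5% with GGGCGG at 10 FPKM or more against 36.3% at 0.

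MYCN was the dominant member of its family. Per length, MYCN was 649 times MYC (1.28 FPKM), and MYCL, the third MYC gene, had 0.167 FPKM. MAX, the obligate dimer partner of each MYC protein, had 7.84 FPKM, so that MYCN messenger RNA exceeded it 106-fold. Among the antagonists that compete for MAX, MXD4 had 14.4 FPKM, MXI1 8.89 FPKM, MGA 7.31 FPKM, MNT 4.12 FPKM, MXD3 3.32 FPKM and MXD1 2.12 FPKM. MLX, the partner of a parallel network of sugar-sensing factors, had 14.3 FPKM, MLXIP of that network had 8.66 FPKM and MLXIPL was listed at 0. Of the 5 coding genes on either side of MYCN in RefSeq order, those on one side had, from the nearest out, 29.7 (DDX1), 4.56 (NBAS), 0.0201 (LRATD1), 80.2 (TRIB2) and 8.41 FPKM (LPIN1). On the other side the values were 0.196 (CYRIA), 0.0374 (RAD51AP2), 0.343 (VSNL1), 11.8 (SMC6) and 10.7 FPKM (GEN1), so both sides held high and low genes.

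Factors of the adrenergic state were expressed almost without exception. Of 30 listed factors, 28 (93.3%) reached 1 FPKM, against 64.5% of all coding genes, and 17 reached 10 FPKM. Their median was 14.3 FPKM, against 3.15 FPKM for all coding genes. PHOX2A, a homeobox factor of noradrenergic neurons, led at 136 FPKM. HAND1 (105.7 FPKM) and HAND2 (97.2 FPKM) were close to each other. The zinc finger factors GATA3 (75.3 FPKM) and GATA2 (64.8 FPKM) and the T-box factors TBX3 (59.97 FPKM) and TBX2 (52.5 FPKM) formed a second tier with SOX4 (70.2 FPKM). ISL1, a LIM homeobox factor of sympathetic neurons, had 22.98 FPKM, HEY1 19.5 FPKM, SOX11 19.1 FPKM and TFAP2B 16.7 FPKM. INSM1 (0.738 FPKM) and LMO3 (0.564 FPKM) were the members below 1 FPKM, while the INSM1 paralogue INSM2 had 14.7 FPKM.

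A search of descriptions for transcription factor or for classes such as homeobox, T-box, forkhead, GATA and inhibitors of DNA binding gave 448 coding genes. Of these, 234 (52.2%) reached 1 FPKM, below the 64.5% of all coding genes, and the median was 1.2 FPKM. The share depends on the terms. There was none for ZNF zinc finger genes, of which 380 of 498 (76.3%) reached 1 FPKM. Factors such as HIF1A (125.6 FPKM) were missed too. Among the 448, MYCN was the highest. It was followed by ID1 (159 FPKM), an inhibitor of basic helix-loop-helix factors, PHOX2A, ID3 (121 FPKM) and ATF4 (110 FPKM), the effector of the integrated stress response. TLX2, a homeobox factor of neural crest derivatives, ranked close behind HAND1, HAND2 and ID2 (77.8 FPKM) at 77.4 FPKM. NFE2L1, a bZIP factor known for proteasome gene control, had 74.5 FPKM.

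The path of catecholamine synthesis was present up to noradrenaline, with unequal levels along it. DDC, which makes dopamine, had 104 FPKM, 7.08 times TH and 19.3 times DBH. PNMT, the enzyme that makes adrenaline, had 0.0606 FPKM. Genes that make and recycle the cofactor of TH were all above 1 FPKM, with QDPR at 14.1, PTS at 5.56, PCBD1 at 4.79, GCH1 at 3.26 and SPR at 2.85 FPKM. For the vesicular amine transporters the values were low, 1.79 FPKM for SLC18A1 and 0.141 FPKM for SLC18A2, whereas the plasma membrane noradrenaline transporter gene SLC6A2 had 8.04 FPKM. Of the enzymes that break amines down, MAOA had 0.816 FPKM and MAOB 0.0368 FPKM. In all, 12 of 16 measured genes of this group (75.0%) reached 1 FPKM, against 64.5% of all coding genes, and SLC6A3 had no row in the table used here.

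Granule genes were broadly present, 20 of 21 measured (95.2%) at 1 FPKM or more, against 64.5% of all coding genes. Their median was 9.12 FPKM. SCG2, the secretogranin II gene, stood apart at 234 FPKM, 19.2 times CHGA (12.2 FPKM), while CHGB had 9.92 FPKM. PAM, the enzyme that amidates peptides, had 75.1 FPKM, the granule peptide gene VGF 44.4 FPKM and the carboxypeptidase gene CPE 26.6 FPKM. PCSK1, a prohormone convertase gene, was the member below 1 FPKM (0.202 FPKM), although PCSK1N, the gene of its inhibitor, had 12.9 FPKM. The synaptic vesicle gene SYP (1.36 FPKM) and SNAP25 (1.34 FPKM), a fusion protein gene of the plasma membrane, were just above 1 FPKM, below SYT1 (22.3 FPKM). Of the peptide hormone genes, NPY had 89.3 FPKM, GAL 23.2 FPKM and VIP 2.63 FPKM. PENK (0.0330 FPKM) and CALCA (0.0567 FPKM) were below 0.1 FPKM, and TAC1, POMC and NTS were listed at 0. PTN and its relative MDK (22.4 FPKM) were both present, while IGF2 had 2.38 FPKM.

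Neuronal cytoskeleton and axon genes were the highest of the neural lists, with a median of 28.2 FPKM. Of 27, 25 (92.6%) had 1 FPKM or more, against 64.5% of all coding genes, and 20 had 10 FPKM or more. STMN2, a microtubule regulator of growing axons, had 241 FPKM, the ubiquitin hydrolase gene UCHL1 197 FPKM and MAP1B 122 FPKM. The peripheral neuron filament gene PRPH had 79.9 FPKM, above NEFM (43.6 FPKM), NEFL (28.2 FPKM) and NEFH (10.3 FPKM). The growth cone gene GAP43 had 56.3 FPKM and the RNA-binding factor gene ELAVL4 17.9 FPKM. The dendrite gene MAP2 had 31.6 FPKM and the axonal tau gene MAPT 2.99 FPKM, while RBFOX3, the NeuN gene of mature neurons, had 0.134 FPKM.

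Excitability genes were sparse and selective. Of 33 measured voltage-gated channel genes 10 (30.3%) reached 1 FPKM, against 64.5% of all coding genes, and the median was 0.362 FPKM. KCNH2, the ERG-type potassium channel, was the highest at 76.8 FPKM. The sodium channel gene SCN9A of sympathetic and sensory neurons had 14.3 FPKM and SCN3A 5.15 FPKM, whereas SCN1A had 0.0495 FPKM. Among calcium channel genes, CACNA1H had 3.59 FPKM and the N-type gene CACNA1B 0.424 FPKM. Nicotinic receptor subunits of autonomic ganglia were present, with CHRNA3 at 18.997, CHRNA5 at 7.48, CHRNB4 at 3.70, CHRNB2 at 2.94 and CHRNA7 at 2.11 FPKM. The muscle subunit gene CHRNB1 had 0.643 FPKM, and CHRND and CHRNE were listed at 0.

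Most receptor families for transmitters had a single leading member. The muscarinic gene CHRM2 had 17.2 FPKM and CHRM4 2.87 FPKM, with the other 3 below 1 FPKM. HTR2B was the only serotonin receptor gene of 10 at 1 FPKM or more (11.7 FPKM). ADRA2A, an inhibitory autoreceptor of noradrenergic cells, led the 8 adrenoceptor genes at 7.43 FPKM. Of 21 glutamate receptor genes 5 (23.8%) reached 1 FPKM, against 64.5% of all coding genes, led by GRIK5 at 3.38 FPKM. Genes that define other transmitter types were mostly low, with 3 of 13 (23.1%) at 1 FPKM or more and a median of 0.0390 FPKM. FEV, a factor of serotonergic neurons, had 8.21 FPKM without TPH1 (0.145 FPKM) or SLC6A4 (listed at 0). SLC18A3, the vesicular acetylcholine transporter gene, had 6.32 FPKM while CHAT, the gene in whose intron it lies, had 0.0909 FPKM.

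Mesenchymal genes were present beside the adrenergic ones, but not all of them. Of 25 listed, 19 (76.0%) reached 1 FPKM, against 64.5% of all coding genes, with a median of 8.92 FPKM. After VIM the highest were ID1, SPARC (99.2 FPKM), FN1 (45.9 FPKM) and COL5A1 (37.8 FPKM), the last 3 matrix genes. The transition factors SNAI2 (24.1 FPKM), TWIST1 (18.1 FPKM), SNAI1 (14.8 FPKM) and ZEB1 (10.9 FPKM) were above 10 FPKM, while their paralogues ZEB2 (6.32 FPKM) and TWIST2 (0.807 FPKM) were not. Of the listed AP-1 factors, FOSL2 was above 10 FPKM and FOSL1 between 1 and 10 FPKM. CD44 and NOTCH2 were above 10 FPKM as well, and NOTCH3 was between 1 and 10 FPKM. The state-defining factor PRRX1 had 0.161 FPKM, whereas its paralogue PRRX2 had 32.0 FPKM, 198 times as much. RUNX1 (0.217 FPKM), MEOX1 (0.0353 FPKM) and IRF1 (0.489 FPKM) were below 1 FPKM too, and the hippo pathway effectors YAP1 (3.48 FPKM) and WWTR1 (3.49 FPKM) were almost equal.

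Genes that mark fibroblasts, some of them matrix genes, were well represented, 10 of 13 (76.9%) at 1 FPKM or more against 64.5% of all coding genes. Their median was 20.5 FPKM. LUM, the lumican gene, had 59.2 FPKM, the PDGF receptor gene PDGFRB 56.0 FPKM and COL3A1 20.5 FPKM. TAGLN (34.1 FPKM), THY1 (28.4 FPKM), ACTA2 (25.5 FPKM), DCN (5.89 FPKM) and PDGFRA (3.42 FPKM) were present too, whereas FAP (0.0487 FPKM) and POSTN (0.174 FPKM) were near 0. Type I collagen is a trimer of COL1A1 and COL1A2 products, yet COL1A1 had 34.7 FPKM and COL1A2 0.391 FPKM, a ratio of 88.8. The type VI collagen genes were more even, with COL6A2 at 36.3, COL6A1 at 22.9 and COL6A3 at 17.2 FPKM. Of 42 collagen genes 15 (35.7%) reached 1 FPKM, and of 12 laminin genes 5 (41.7%), led by LAMC1 (55.6 FPKM) and LAMB1 (38.0 FPKM). Both shares were below the 64.5% of all coding genes. Adhesion genes showed N-cadherin, CDH2, at 53.1 FPKM and E-cadherin, CDH1, listed at 0. The integrin beta 1 gene ITGB1 had 51.6 FPKM.

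Wnt antagonist genes had a median of 3.52 FPKM and Wnt ligand genes one of 0.121 FPKM. Besides DKK1, SFRP1 had 159 FPKM and DKK2 19.7 FPKM, and 5 of 8 antagonist genes (62.5%) reached 1 FPKM, near the 64.5% of all coding genes. Of 16 ligand genes only WNT6 (13.4 FPKM) and WNT3 (2.04 FPKM) did, or 12.5%. Of the frizzled receptor genes 6 of 9 (66.7%) did, again near the share of all coding genes, FZD7 leading at 13.97 FPKM.

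Markers of other cell types were low. No leukocyte gene of 8 measured reached 1 FPKM, with a summed level of 1.06 FPKM and PTPRC, the pan-leukocyte gene, at 0.0935 FPKM. The same held for the 3 erythroid, 4 adrenal cortex and 4 hepatocyte genes with a row, whose sums were 0.394, 0.144 and 0.164 FPKM. Of the endothelial genes 2 of 9 (22.2%) reached 1 FPKM, against 64.5% of all coding genes. These were EMCN (2.77 FPKM) and VWF (1.16 FPKM), whereas CDH5 (0.507 FPKM) and KDR (0.119 FPKM) did not reach it. For epithelium, EPCAM had 1.34 FPKM and KRT18 1.19 FPKM, and KRT14 was listed at 0. In the glial list SOX10, the defining factor of Schwann cells, had 0.0465 FPKM and ERBB3 0.00342 FPKM, and only NGFR (5.83 FPKM) and PMP22 (3.47 FPKM) reached 1 FPKM. Muscle had DES at 1.66 FPKM with MYOD1 listed at 0, melanocytes had TYRP1 (1.56 FPKM) and MITF (1.12 FPKM), and pluripotent cells SOX2 at 1.94 FPKM with NANOG listed at 0. Genes that such cells are not known to use gave the level of background. None of 52 olfactory receptor genes with a row reached 1 FPKM, the highest having 0.296 FPKM, and none of 6 hair keratin-associated genes did.

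**Figure D2:**
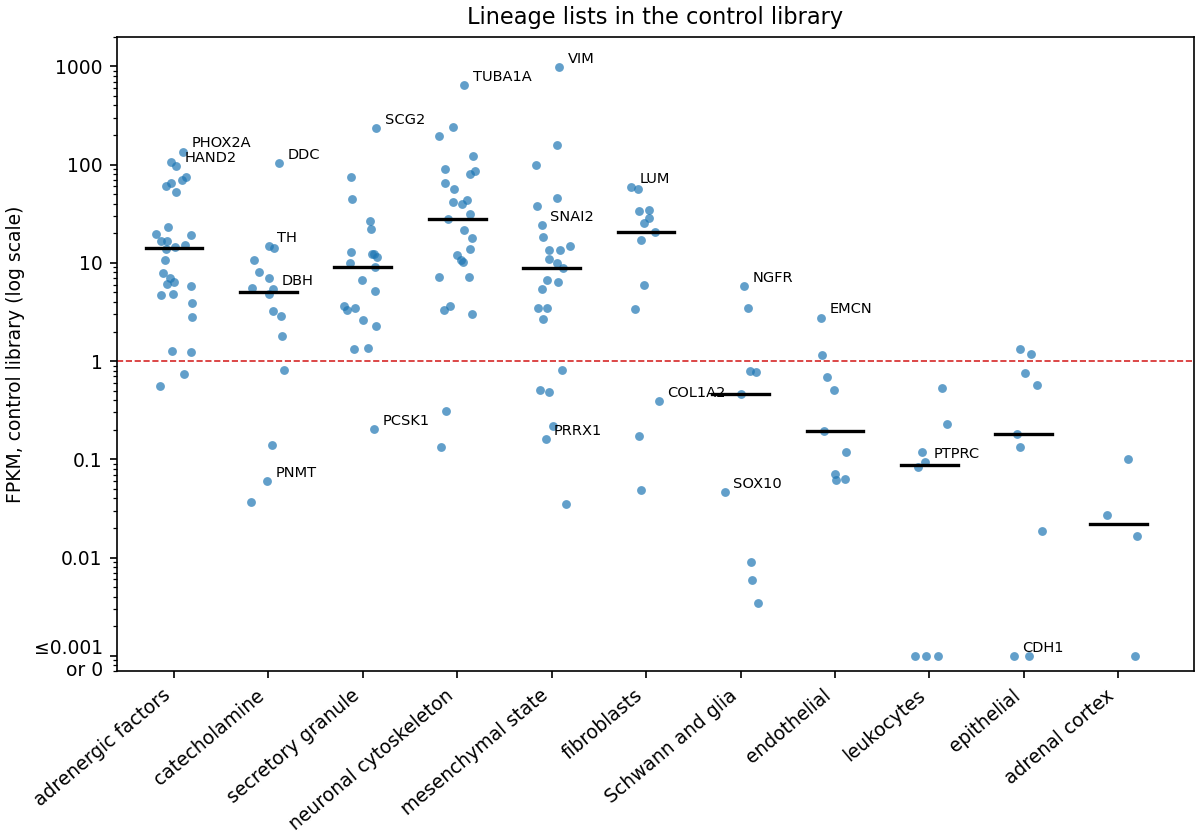
FPKM in the control library (log scale) of each measured member of 11 lists, 1 point per gene, with the list median as a black bar and 1 FPKM as a dashed line; values at or below 0.001, zeros included, are drawn on the lowest tick. The adrenergic, granule and neuronal lists lie mostly above 1 FPKM, with the catecholamine list, as do the mesenchymal and fibroblast lists, and the medians of the other 5 lists lie between 0.0219 and 0.463 FPKM.

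HOX genes, which give cells their position along the body axis, were expressed from 2 of their 4 clusters. None of the 8 HOXA and 6 HOXB genes with a row reached 0.1 FPKM, and 5 in each cluster were listed at 0. In the HOXC cluster 6 of 8 reached 1 FPKM, with HOXC4 at 7.85, HOXC5 at 5.24, HOXC6 at 7.46, HOXC8 at 10.6, HOXC9 at 7.25 and HOXC10 at 2.87 FPKM. Toward the posterior end of that cluster HOXC11 had 0.546 FPKM and HOXC13 0.0237 FPKM. In the HOXD cluster 4 of 9 reached 1 FPKM, with HOXD1 at 0.983, HOXD3 at 3.87, HOXD4 at 4.15, HOXD8 at 3.66 and HOXD9 at 2.99 FPKM, then HOXD10 at 0.106 FPKM. The clusters differed at paralogue group 10, where HOXC10 was present and HOXD10 was not, and in both the members of group 11 and beyond were below 1 FPKM. HOXC4, HOXC5 and HOXC6 share exons in some transcripts, so their separate values are uncertain. The long noncoding gene HOTAIR, which lies in the HOXC cluster, had 5.30 FPKM.

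**Figure D3:**
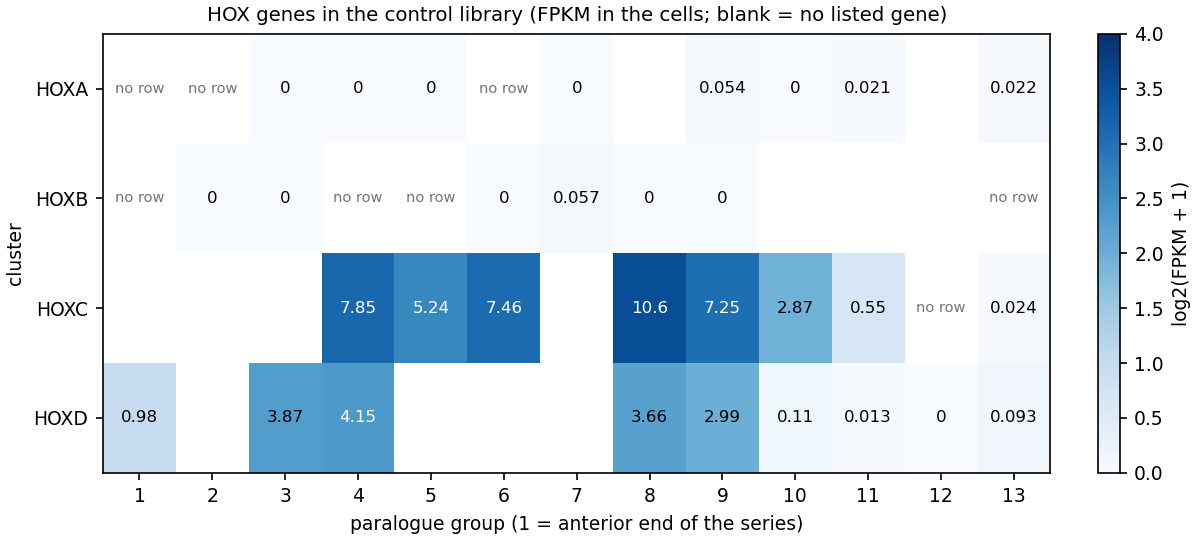
FPKM of the listed HOX genes in the control library by cluster (rows) and paralogue group (columns), shaded by log2(FPKM + 1). HOXA and HOXB cells lie at 0 to 0.057 FPKM, whereas HOXC4 to HOXC10 lie between 2.87 and 10.6 FPKM and HOXD3 to HOXD9 between 2.99 and 4.15 FPKM.

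Of the neural crest and progenitor list, 11 of 16 measured genes reached 1 FPKM, close to the 64.5% of all coding genes. TFAP2A, PAX7 and ZIC1 were listed at 0, PAX3 had 0.00705 FPKM and SOX10 was near 0 as given above. ID3 (121 FPKM), the progenitor filament gene NES (82.5 FPKM), ID2, the homeobox gene MSX2 (43.2 FPKM) and ETS1 (19.7 FPKM) were above 10 FPKM, as was SNAI2 (24.1 FPKM). SOX9 had 5.42 FPKM, ID4 3.36 FPKM, ZIC2 2.24 FPKM, SOX2 1.94 FPKM and MSX1 1.69 FPKM.

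Growth factor receptors were uneven within families. RET, the receptor of GDNF-family ligands, had 72.1 FPKM, and of its co-receptors GFRA2 had 6.65 FPKM, GFRA1 0.257 FPKM and GFRA3 0.0550 FPKM. The neurotrophin receptor genes NTRK2 (0.0143 FPKM) and NTRK3 (0.0384 FPKM) were below 0.1 FPKM. ALK, mutated in some neuroblastomas, had 0.841 FPKM. The collagen receptor gene DDR2 (36.9 FPKM), IGF1R (19.8 FPKM), FGFR1 (15.04 FPKM) and EGFR (11.7 FPKM) were present, whereas KIT (0.103 FPKM), MET (0.0753 FPKM) and ERBB4 (0.0154 FPKM) were not at 1 FPKM. In all, 15 of 28 measured receptor genes (53.6%) reached 1 FPKM, against 64.5% of all coding genes.

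A list of surface antigens considered in neuroblastoma immunotherapy, together with enzymes that make glycan antigens, had 18 of 24 genes (75.0%) at 1 FPKM or more, against 64.5% of all coding genes. CD24 had 203 FPKM and ALCAM 113 FPKM. The immune checkpoint gene CD276 had 36.2 FPKM, the adhesion genes NCAM1 39.2 FPKM and L1CAM 21.6 FPKM, DLK1 16.3 FPKM and GPC2 6.07 FPKM. Enzymes of ganglioside synthesis were split, since B4GALNT1, which adds the last sugar of the disialoganglioside antigen, had 9.80 FPKM, whereas ST8SIA1, which adds a preceding sialic acid, had 0.0594 FPKM. ST3GAL5, the first sialyltransferase of the path, had 1.22 FPKM. The polysialyltransferase gene ST8SIA2 had 9.51 FPKM and ST8SIA4 0.180 FPKM. Of 9 measured genes whose proteins bind clinical radioligands 3 (33.3%) reached 1 FPKM, SLC6A2 (8.04 FPKM), SSTR2 (5.40 FPKM) and SSTR1 (1.57 FPKM). CXCR4 had 0.755 FPKM.

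Transporter genes were divided into a well-expressed set and a larger low set. Of 269 solute carrier genes outside the mitochondrial SLC25 family 129 (48.0%) reached 1 FPKM, against 64.5% of all coding genes, 36 reached 10 FPKM and 30 were listed at 0. The SLC25 carriers were more often present, 37 of 47 (78.7%). They were led by the ADP and ATP exchangers SLC25A6 (139 FPKM) and SLC25A5 (113 FPKM), which are close relatives. Outside that family SLC38A2, a sodium-coupled carrier of small neutral amino acids, led at 122 FPKM, followed by the anion exchanger gene SLC4A2 at 58.4 FPKM.

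Amino acid carriers included 16 of 30 (53.3%) at 1 FPKM or more, against 64.5% of all coding genes. SLC7A5, the leucine exchanger gene, had 47.6 FPKM and its heavy chain gene SLC3A2 19.1 FPKM. SLC38A1 (43.2 FPKM) and SLC1A5 (38.6 FPKM) carry glutamine, and SLC7A1 (14.5 FPKM) carries arginine. The glutamate carriers of glia and neurons were near 0, with SLC1A3 at 0.0412 FPKM, SLC1A1 at 0.0141 FPKM and SLC1A2 listed at 0. For glucose, SLC2A1 had 10.8 FPKM and SLC2A3 5.63 FPKM, and SLC2A2 was listed at 0. Of the lactate carrier genes, SLC16A1 had 46.3 FPKM and SLC16A3 1.47 FPKM, a ratio of 31.4.

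Metal carriers were the most widely expressed of the transporter lists, 18 of 22 (81.8%) at 1 FPKM or more. The share of all coding genes was 64.5%, and the median of the metal list was 8.37 FPKM. The zinc carriers SLC39A1 (41.0 FPKM), SLC39A7 (29.6 FPKM), SLC39A14 (29.3 FPKM) and SLC39A6 (25.7 FPKM) led, the copper importer gene SLC31A1 had 18.7 FPKM and the transferrin receptor gene TFRC 25.03 FPKM. The iron exporter gene SLC40A1 had 1.86 FPKM. Of the beta subunit genes of the sodium pump, ATP1B3 had 36.8 FPKM and ATP1B1 14.8 FPKM. SLC12A2, the chloride importer, had 3.21 FPKM and SLC12A5, the neuronal chloride exporter, 0.0603 FPKM.

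Aquaglyceroporins, channels known to pass arsenite, differed in level. AQP3 had 3.003 FPKM, near the median of all coding genes, whereas AQP7 had 0.0402 FPKM, AQP10 0.146 FPKM, and AQP9 was listed at 0. The water channel AQP1 had 9.71 FPKM, so 2 of 11 aquaporin genes (18.2%) reached 1 FPKM, against 64.5% of all coding genes. Of the efflux pumps, ABCC1 had 16.6 FPKM, ABCC5 8.73 FPKM and ABCC4 6.33 FPKM. ABCC2, which exports glutathione conjugates of arsenic in liver, had 0.556 FPKM, ABCB1, the multidrug pump, 0.580 FPKM, and ABCG2 was listed at 0. ABCA3 was the highest listed ABC transporter at 17.6 FPKM. For nucleosides and vitamins, SLC29A1 (15.2 FPKM) and SLC5A6 (20.1 FPKM) led and the concentrative carriers SLC28A2 and SLC28A3 were listed at 0.

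**Figure D4:**
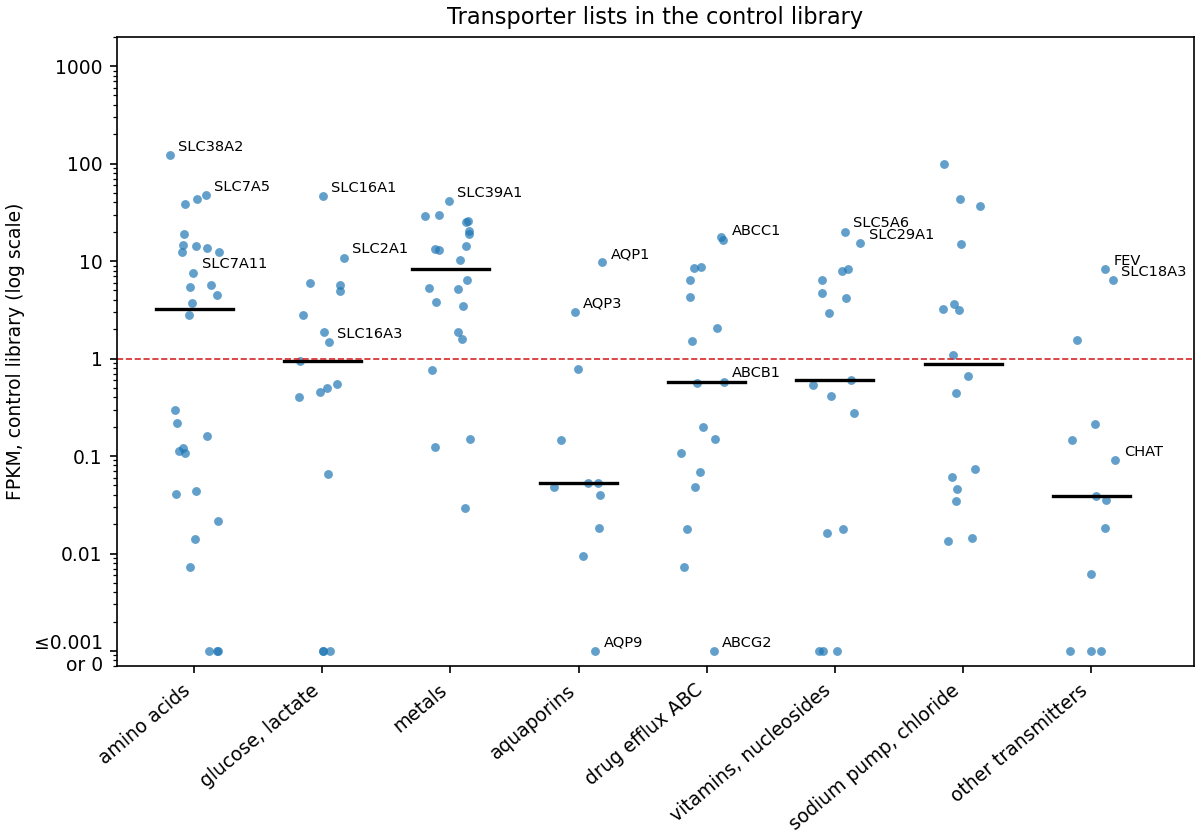
FPKM in the control library (log scale) of each measured member of 8 lists, 7 of transporters and channels and 1 of genes that define other transmitter types, 1 point per gene, with the list median as a black bar and 1 FPKM as a dashed line; values at or below 0.001, zeros included, are drawn on the lowest tick. The metal list has the highest median, 8.37 FPKM, and the aquaporin list a median of 0.0525 FPKM with AQP1 and AQP3 above 1 FPKM.

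Antigen presentation genes were partial. B2M, the class I light chain, had 93.8 FPKM, HLA-C 9.96 FPKM and HLA-B 0.349 FPKM. HLA genes are near-identical in stretches, so the division of reads between them is uncertain. The peptide transporter genes TAP1 (0.472 FPKM) and TAP2 (2.96 FPKM), the immunoproteasome genes PSMB8 (0.806 FPKM) and PSMB9 (listed at 0), and the transactivator gene NLRC5 (0.366 FPKM) were low. Of 10 class II genes 1 (10.0%) reached 1 FPKM, HLA-DRA (1.03 FPKM). Among 41 chemokine and receptor genes 2 (4.88%) did, CXCL12 (7.63 FPKM) and CCL2 (2.51 FPKM). The share of all coding genes was 64.5%.

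Several genes of extrinsic apoptosis were low. CASP8, its initiator, had 0.783 FPKM, CASP10 0.0523 FPKM, FAS 0.0938 FPKM and TNFRSF10A 0.290 FPKM. The adaptor gene FADD (21.0 FPKM), TNFRSF10B (2.37 FPKM) and the executioner CASP6 (7.07 FPKM) were present.

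Each of 24 proliferation genes was expressed, 22 at 10 FPKM or more, with a median of 29.4 FPKM. PCNA, the replication clamp, had 154 FPKM, MCM7 110 FPKM, TOP2A 107 FPKM and MKI67 49.8 FPKM. CCNE1 (3.53 FPKM) and CCNE2 (4.76 FPKM) were the lowest members, against 328 FPKM for CCND1, whose partner gene CDK4 had 69.4 FPKM. Of the genes listed as neuroblastoma drivers 26 of 31 (83.9%) reached 1 FPKM, against 64.5% of all coding genes. Among them were AURKA (19.1 FPKM), LIN28B (5.80 FPKM) and TERT (1.06 FPKM). CHD5, a gene of the short arm of chromosome 1 often lost in this tumour, had 0.306 FPKM, and the RAS regulator gene NF1 had 0.704 FPKM while NRAS had 57.4 FPKM. Chromatin genes of DNA methylation and polycomb were present in 17 of 18 cases (94.4%). UHRF1 had 30.7 FPKM, CBX2 22.1 FPKM and CBX7 0.754 FPKM.

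Of the long noncoding RNAs, H19 was the highest with a symbol (162 FPKM), followed by NORAD (93.2 FPKM), MALAT1 (39.9 FPKM) and TUG1 (37.6 FPKM). HAND2-AS1 (21.7 FPKM) and MYCNOS (11.2 FPKM) lie opposite HAND2 and MYCN, and since the strand used in counting is not stated, their reads cannot be separated from those of the coding genes. H19 and IGF2 are reciprocally imprinted neighbours, and H19 exceeded IGF2 68.1-fold per length. Other imprinted genes ranged from GNAS (61.0 FPKM), NNAT (46.8 FPKM) and PEG10 (40.7 FPKM) to KCNQ1OT1 (0.157 FPKM) and ZIM2 (0.00027 FPKM). In all, 14 of 21 imprinted genes (66.7%) had 1 FPKM or more, near the 64.5% of all coding genes.

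The FPKM of cytosolic ribosomal protein genes, whose products are needed in equal numbers, was set against coding length. Over 77 such genes, FPKM ran from 1.56 (RPS29) to 731 (RPS2), with a median of 57.0. The 22 with a coding length of up to 400 nt had a median of 18.4 FPKM, the 30 above 400 and below 600 nt a median of 55.5 FPKM and the 25 of 600 nt or more a median of 168 FPKM. Spearman's rho of FPKM and coding length was 0.66 across these genes of the same library, which are not independent replicates. RPL34 (10.4 FPKM) and RPL39 (14.9 FPKM) were among the low short genes, and RPL41, the shortest, was an exception at 143 FPKM. Many of these genes have processed pseudogenes that can take reads, and RPL14 (22.5 FPKM) and RPL9 (23.5 FPKM) were the lowest of the long genes. A row described as an RPL9 pseudogene had 325 FPKM. The parts of length and of pseudogenes in these values were not tested apart. Levels of other short genes may carry the same limit, which was not tested.

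**Figure D5:**
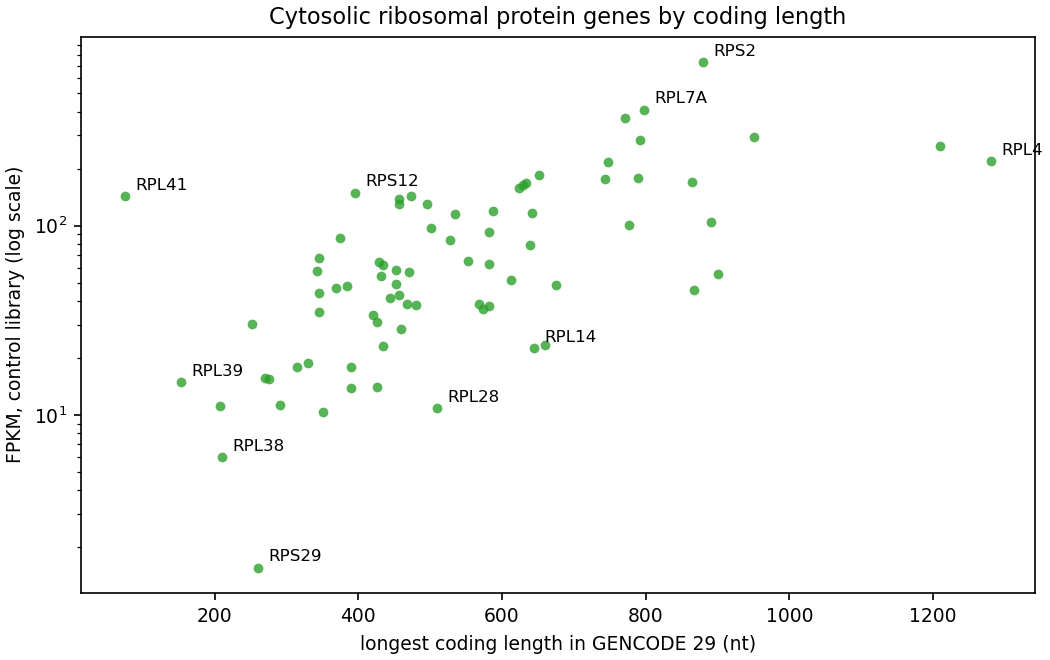
FPKM in the control library (log scale) of 77 cytosolic ribosomal protein genes against their longest coding length in GENCODE 29 in nucleotides, 1 point per gene. Short genes mostly lie low (median 18.4 FPKM up to 400 nt) and long genes high (median 168 FPKM from 600 nt). RPL41 at 143 FPKM and RPS12 at 149 FPKM are short exceptions.

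Expressed genes were spread over the genome. By chromosome, the share of coding genes at 1 FPKM or more ran from 59.2% on chromosome 18 (125 of 211 genes) to 70.2% on chromosome 14 (355 of 506), around the 64.5% of all coding genes. Chromosome 2, which carries MYCN, had 67.8% (725 of 1069). The median level was lowest on chromosome 18 (1.69 FPKM) and on chromosome 19 (1.83 FPKM). Chromosome 19 holds many zinc finger genes, and their part in its median was not tested. Over all chromosomes, 380 of 498 ZNF genes (76.3%) reached 1 FPKM, but 37 reached 10 FPKM and the median was 2.06 FPKM.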

How the data were processed

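RNA of control SK-N-BE(2) cells was made into a paired-end TruSeq library from 1.3 µg of total RNA, per the labels' protocols. The authors deposited FPKM per gene, per the file headers; no source here states the aligner, counter, annotation or strand. Of genome builds, GRCm38 and mm10, both mouse, are named per the submitters' processing notes, but the rows carry human names, 25196 of them with an HGNC source, so no coordinates are taken from the table. The control column was used as deposited. A row was called present at 1 FPKM. Gene types came from GENCODE 29 by name or identifier (30382 of 34520 rows matched; 359 rows share a name, and the highest was used), chromosomes and promoters from RefSeq GRCh38.p14. Lists, 46 with 773 genes of which 693 had a row, families and members were chosen with earlier results of these data known. The listed genes reached 1 FPKM in 420 cases (60.6%). Named were the markers, the 30 highest coding genes in part, list members, and leading factors and transporters; some are not reported here.

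Depth is not stated. Among 3093 low rows with a single GENCODE 29 transcript, the most frequent product of FPKM and length in kb was 0.0279, or 35.8 counted units per kb at 1 FPKM; 19.5% of products were within 0.01 of a whole multiple, so reads were not recovered. If units are independent, 36 of them give a counting CV of 16.7%. An exact 0 is reported as listed at 0. The counting steps were checked on simulated data. Python 3.11.15, pandas 2.3.3 and scipy 1.17.1 were used. Alternatives were other levels, TPM scaling and subsets of rows; protein lengths, planned for, were not analysed here.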

Additional observations from a re-analysis of the deposited data

How the results depend on the processing

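Of the count of 12606 present rows and the 420 present listed genes, both stayed within 1.5 times under a level of 0.5 or 2 FPKM or 1 TPM, the rows ranging from 10537 to 17274 and the listed genes from 385 to 494. By list, the count moved by over 1.5 times for 5 of 46 lists at 0.5 FPKM, 6 at 2 FPKM and 8 at 1 TPM. The 24.6% of summed FPKM in the 10 highest rows became 4.87% without the mitochondrial genome, 25.2% without small RNAs and 26.0% without pseudogenes, read-through rows and small RNAs, by the removal of those rows. At 30 FPKM in place of 10, TATAAA was found in 9.27% of promoters against 4.91%, and GGGCGG in 73.5% against 76.3%; the cause was not tested. The shares with CACGTG and TGACGTCA at 30 FPKM stayed within the counting interval, as did the 4 shares at 10 FPKM or more among coding genes only (chosen after seeing the data). Over all levels, GGGCGG was found in 66.8% of coding promoters against 62.8%. No paired analysis was possible because each group had 1 library. A single culture and an unstated depth limit every level given.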

Other observations

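Clustered protocadherins, adhesion genes of neurons, were expressed in part, with 26 of 53 at 1 FPKM or more and PCDHGC3 the highest at 57.0 FPKM; the genes of a cluster share exons, so their separate values are uncertain. Of 20 cadherin genes 4 reached 1 FPKM, with CDH24 (24.2 FPKM) next after CDH2. SLC10A4, a vesicular protein of cholinergic and monoaminergic neurons, had 31.4 FPKM. Of 17 purinergic receptor genes 6 (35.3%) reached 1 FPKM, led by P2RY6 at 2.78 FPKM. The shares of protocadherin, cadherin and purinergic receptor genes at 1 FPKM or more were all below the 64.5% of all coding genes. Outside the coding genes, 6071 pseudogene rows held 2.77% of the summed FPKM with 707 at 1 FPKM or more, and 1635 rows of small RNAs held 0.478%.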
